A study of Rattus norvegicus with 12 samples.

Results

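The rat major histocompatibility complex, named RT1, and the machinery that loads peptides onto its products were followed through central amygdala (CeA) samples of 12 rats. The genes were every gene whose symbol starts with RT1- together with *B2m*, *Tap1*, *Tap2*, *Tapbp*, *Psmb8*, *Psmb9*, *Cd74* and *Ciita*. They numbered 62 of the 37209 genes in the count table, of which 54 were RT1 genes (43 class I and 11 class II) and 8 were the other genes. The rats were male Sprague Dawley animals labelled as wild type and 14 to 16 weeks old. The CIE group (n = 6, rats 1 to 6) had inhaled ethanol vapor in repeated cycles, known as chronic intermittent ethanol, and was sampled immediately after its last exposure. The Control group (n = 6, rats 7 to 12) breathed air only. Each library came from tissue punches of 1 rat, so the libraries were separate animals. Sprague Dawley rats are outbred, and the vapor was given by the experimenter, so the model reflects imposed exposure in males of 1 stock. The comparison asked whether the expression of these genes differed between the groups, and how much of their variation lay between single rats of the same group.

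Class I molecules pair an RT1 heavy chain with beta-2-microglobulin (*B2m*) and show peptides from inside the cell to CD8 T cells and natural killer cells. The peptides are cut by the proteasome, whose interferon-induced form contains Psmb8 and Psmb9, carried into the endoplasmic reticulum by Tap1 and Tap2, and loaded with the help of tapasin (Tapbp). Class II molecules are made of an alpha and a beta chain (Da with Db1, Ba with Bb), are escorted by the invariant chain Cd74, receive peptides through the DM proteins under the control of DO, and depend on the transactivator Ciita. In the brain, class II is mainly a product of microglia, perivascular macrophages and blood-derived immune cells, whereas class I is made by many cell types. The complex is among the most polymorphic stretches of vertebrate genomes, and rat strains differ in the number of class I genes as well as in their sequence.

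All 62 genes were matched by symbol to the RefSeq list of the rat assembly GRCr8, and the 54 RT1 genes lie on chromosome 20 there. RefSeq promoter windows (300 bases each, mostly before the annotated start) were at hand for 42 of them. The windows below were chosen because the results turn on these genes. *RT1-T18*, *RT1-N2* and *RT1-S2* had the largest gaps between rats among the tested genes with a window, *RT1-Da* and *RT1-DMa* are class II genes whose means lay on opposite sides, and *Tap1* stands for the processing genes. Capitals mark 3 motifs, searched on both strands and printed wherever they were found, namely CCAAT (the box bound by NF-Y, ATTGG on the other strand), GAAANNGAAA (the core of the interferon-stimulated response element, TTTCNNTTTC on the other strand) and TTCNNNGAA (the palindrome bound by STAT dimers). The sequences are those of the reference strain and not of the animals sampled.
RT1-T18, chr20:2610028-2610327, GRCr8, plus strand, no motif: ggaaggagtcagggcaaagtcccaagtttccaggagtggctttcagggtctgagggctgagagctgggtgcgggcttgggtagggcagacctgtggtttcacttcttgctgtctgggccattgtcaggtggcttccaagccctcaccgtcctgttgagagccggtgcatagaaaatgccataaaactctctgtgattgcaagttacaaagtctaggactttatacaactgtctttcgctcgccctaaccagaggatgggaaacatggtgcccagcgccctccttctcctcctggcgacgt
RT1-N2, chr20:2646080-2646379, GRCr8, plus strand: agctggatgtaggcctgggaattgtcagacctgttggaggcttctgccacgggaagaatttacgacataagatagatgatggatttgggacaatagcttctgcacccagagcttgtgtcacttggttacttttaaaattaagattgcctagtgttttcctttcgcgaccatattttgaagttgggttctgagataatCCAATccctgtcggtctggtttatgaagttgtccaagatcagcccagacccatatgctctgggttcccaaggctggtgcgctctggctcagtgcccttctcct
RT1-S2, chr20:2654804-2655103, GRCr8, plus strand: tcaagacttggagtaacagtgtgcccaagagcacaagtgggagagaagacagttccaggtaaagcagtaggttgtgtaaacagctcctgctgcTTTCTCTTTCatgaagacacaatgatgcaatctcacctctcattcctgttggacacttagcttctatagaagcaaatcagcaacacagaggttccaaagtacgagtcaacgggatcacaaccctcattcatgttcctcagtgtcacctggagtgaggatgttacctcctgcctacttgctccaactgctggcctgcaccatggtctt
RT1-Da, chr20:4515165-4515464, GRCr8, plus strand: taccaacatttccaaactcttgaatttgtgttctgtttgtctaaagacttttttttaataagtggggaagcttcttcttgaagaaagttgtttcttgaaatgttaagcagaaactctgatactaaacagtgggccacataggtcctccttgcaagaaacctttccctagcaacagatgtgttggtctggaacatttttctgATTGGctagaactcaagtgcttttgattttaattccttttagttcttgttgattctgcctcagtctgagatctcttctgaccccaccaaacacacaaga
RT1-DMa, chr20:4712286-4712585, GRCr8, minus strand: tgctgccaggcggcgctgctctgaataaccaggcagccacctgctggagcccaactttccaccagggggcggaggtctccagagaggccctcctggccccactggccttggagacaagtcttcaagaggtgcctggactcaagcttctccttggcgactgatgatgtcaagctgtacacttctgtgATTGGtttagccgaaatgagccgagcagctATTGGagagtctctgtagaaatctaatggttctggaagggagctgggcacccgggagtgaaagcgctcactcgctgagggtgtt
Tap1, chr20:4668494-4668793, GRCr8, minus strand: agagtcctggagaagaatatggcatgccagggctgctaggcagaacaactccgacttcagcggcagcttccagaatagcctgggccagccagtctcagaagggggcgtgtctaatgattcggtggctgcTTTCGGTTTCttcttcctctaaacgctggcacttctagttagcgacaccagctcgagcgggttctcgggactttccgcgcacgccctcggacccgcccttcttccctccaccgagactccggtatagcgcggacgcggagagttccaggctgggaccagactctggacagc

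The CCAAT box was present in 9 of the 9 class II windows, in 17 of 26 class I windows and in 4 of 7 windows of the processing genes, compared with 37.5% of all 33469 rat promoter windows. In *RT1-Da* the box begins at position -49 from the annotated start, and *RT1-DMa* has boxes at -64 and -34. The interferon core was found in 5 of the 7 processing genes (*B2m*, *Tap1*, *Tap2*, *Tapbp* and *Psmb8*), in 3 class I windows (*RT1-N3*, *RT1-S2* and *RT1-S3*) and in 0 class II windows, against 3.92% of all windows. It begins at -121 in *Tap1* and at -157 in *RT1-S2*. The STAT palindrome was found in 3 of the 42 windows (7.14%, against 8.87% of all). These are letter matches in the windows and were not measured as bound sites. *RT1-DMb*, *RT1-O2-ps* and *Ciita* were among the 20 genes for which no window was printed or searched.

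The libraries held 61978486 to 78441691 counted fragments in CIE rats and 39082548 to 95647601 in Control rats. Values are given as CPM, counts scaled to a common library size after TMM normalization, and levels are compared between rats for 1 gene at a time. A total of 42 of the 62 genes passed the filter on low counts and entered a test across 20944 genes, namely 27 class I, 7 class II and all 8 other genes. Of the 20 that did not, *RT1-CE6*, *RT1-CE7*, *RT1-O1* and *RT1-T24-2* had 0 counts in every rat, which allows up to 0.0314 CPM in the deepest library and 0.0768 CPM in the shallowest (3 counts, counting error only). The other 16 reached at most 32 counts in any rat. They were the class II genes *RT1-DOa*, *RT1-Db2*, *RT1-Ha* and *RT1-Hb-ps1*, the class I genes *RT1-M1-5*, *RT1-M2*, *RT1-M4*, *RT1-M5* and *RT1-T24-4*, and 7 pseudogenes of the RT1-M series. In all, 14 of the 62 genes carry a pseudogene name, and 6 of those were tested. Many class I genes are near-identical copies, so reads could be divided among them in counting, and reads of an outbred rat that match the single reference genome poorly may not be counted. A low count of a class I gene therefore cannot be told apart from a form of the gene that the reference does not represent.

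Few of these genes passed a threshold between the groups, which does not show that the others were equal. Counts this small were not tested against the shares of all genes printed beside them. A nominal p value below 0.05 (edgeR quasi-likelihood test) was reached by 2 of the 42 genes (4.76%), *RT1-DMb* and *RT1-M1-2*, both lower in the CIE group, compared with 8.31% of all genes tested. None of the 42 passed a 5% false discovery rate (FDR, the p value adjusted over all genes tested) in edgeR, where 0.363% of all genes did. An FDR printed for a single gene belongs to its edgeR p value, also where an exact permutation p is printed beside it. DESeq2 also gave 0 at 5% FDR (274 of all 29452 genes) with 3 of 58 genes at a nominal p value below 0.05 (2199 of all genes), and the third was *RT1-Db1*. Limma-voom gave 0 at 5% FDR (234 of all 20944 genes) with 5 of 42 at a nominal p value below 0.05 (3596 of all genes). These were *RT1-DMb*, *RT1-M1-2*, *RT1-DMa*, *RT1-CE13* and *RT1-M1-3-ps*. In 0 of the 42 did the 2 groups fail to overlap, against 0.893% of all genes. Of the 42 genes, 21 had a higher and 21 a lower estimate in the CIE group, and 50.3% of all genes had a higher one. The median log2 fold change was 0.01 for the 42 genes, 0.03 for class I, -0.23 for class II and 0.01 for the processing genes, beside 0.00 for all genes.

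**Figure D1:**
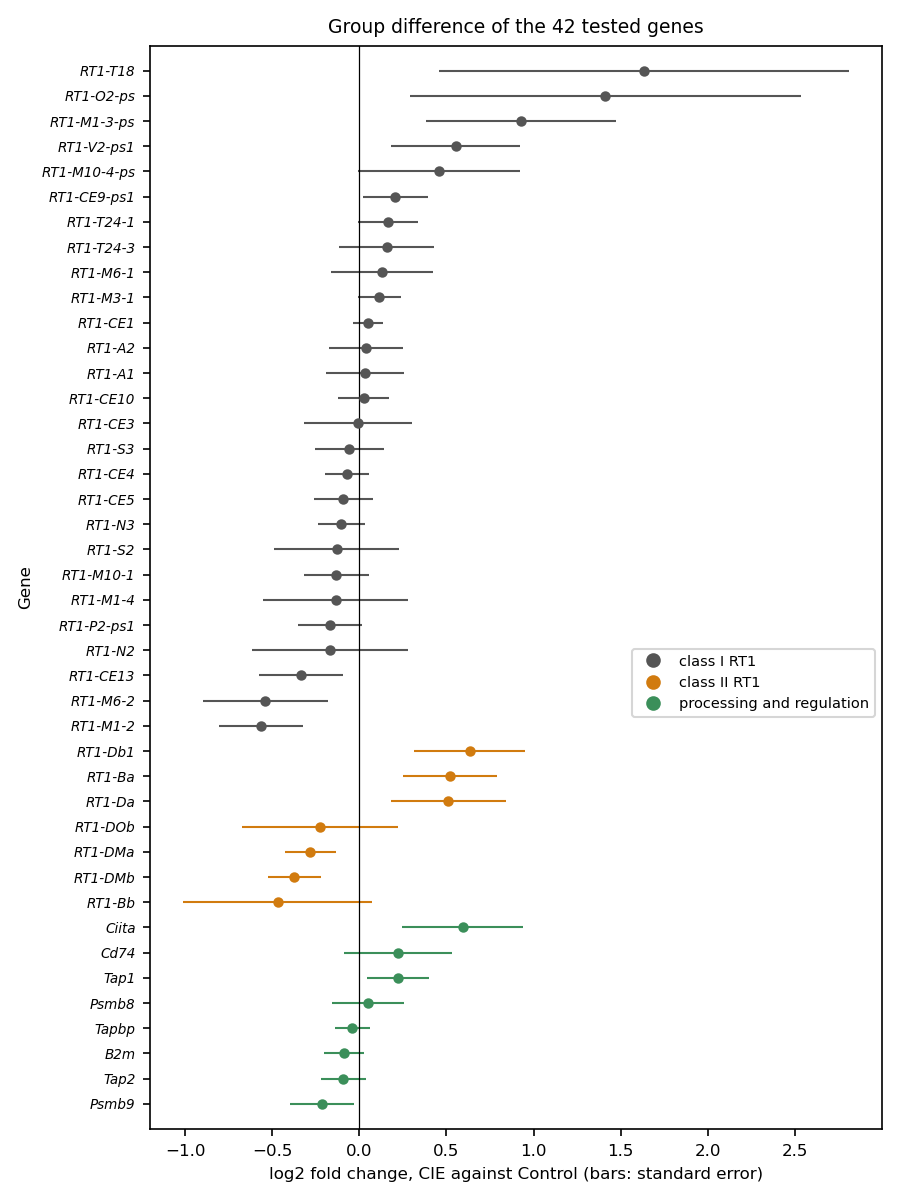
Log2 fold change (CIE against Control, x axis) of each of the 42 tested genes (y axis), with bars for the standard error, coloured by class and sorted within class. Class I estimates lie between -0.56 (RT1-M1-2) and 1.63 (RT1-T18), and the largest of them carry the widest bars.

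Variation between rats of the same group was larger over these genes than over all genes. The pooled within-group SD of log2 CPM had a median of 0.42 over the 42 genes and 0.59 over the 7 class II genes, beside 0.23 over all genes tested. These medians were not matched for expression level, and most of the 7 class II genes had means near or below 1 CPM. The SD exceeded the 95th percentile of all genes (0.91) in 5 of the 42 (11.9%, against 5.0% of all genes), which were *RT1-T18*, *RT1-O2-ps*, *RT1-N2*, *RT1-Bb* and *RT1-M1-3-ps*. Low counts inflate this measure, and among genes of at least 1 CPM 6 of 28 lay above the 95th percentile, namely *RT1-T18*, *RT1-O2-ps*, *RT1-N2*, *RT1-S2*, *RT1-M6-2* and *Cd74*. The share of the total sum of squares that lay between the 2 groups had a mean of 10.1% for the 42 genes and 11.5% for all genes, where labels without meaning would give 9.09% on average. Its median was 6.42% for the 42 genes, 5.95% for class I, 18.6% for the 7 class II genes and 6.12% for all genes.

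**Figure D2:**
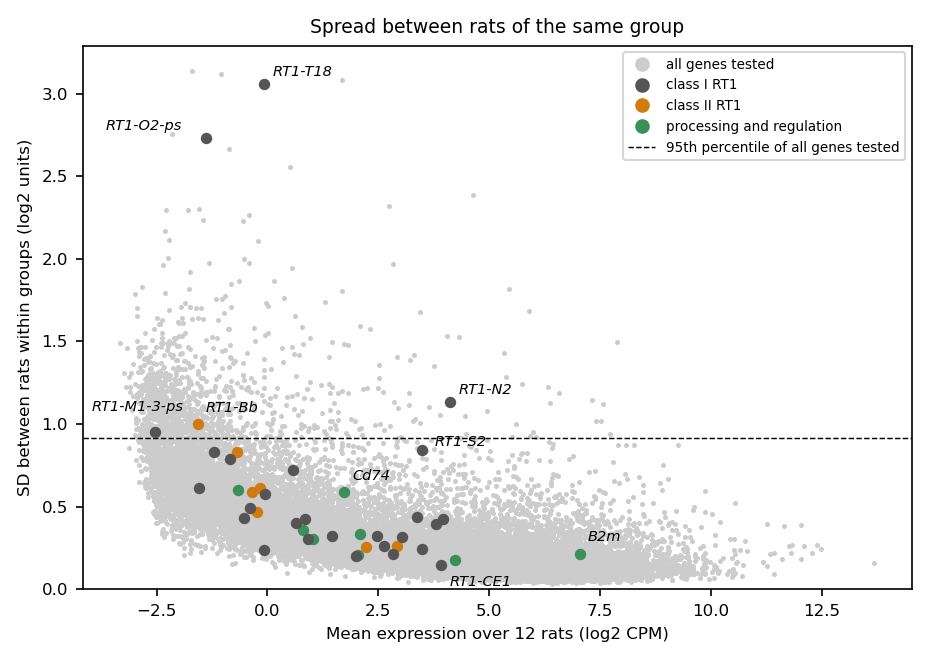
Mean expression over the 12 rats (x axis, log2 CPM) and SD between rats within groups (y axis, log2 units) of all 20944 genes tested (grey) and of the 42 RT1 and processing genes (coloured by class), with a dashed line at the 95th percentile. RT1-T18 and RT1-O2-ps stand near the top of the plot, and RT1-N2 and RT1-S2 lie above most genes of like expression, while B2m and RT1-CE1 lie among the bulk.

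*RT1-T18*, a nonclassical class I gene, was present in some rats and nearly absent in others. Its counts in CIE rats 1 to 6 were 570, 558, 649, 506, 7 and 8, and in Control rats 7 to 12 they were 428, 496, 8, 1, 4 and 13. In CPM the values were 8.77, 9.30, 10.03, 7.53, 0.101 and 0.0987 in CIE rats and 5.69, 5.16, 0.115, 0.0168, 0.103 and 0.174 in Control rats. Rats 1, 2, 3, 4, 7 and 8 were thus high and the other 6 low, with no value between 0.174 and 5.16 CPM and with high and low rats in both groups. This gap of 4.68 log2 units ranked 2 among those of any of the 20944 genes, and the within-group SD of 3.06 ranked 4. The high rats were 4 of 6 in the CIE group and 2 of 6 in the Control group, so that the group means differed (5.97 ± 4.62 against 1.88 ± 2.75 CPM, SD) without passing the test (log2 fold change 1.63 ± 1.18 SE, nominal p = 0.187, FDR 0.780, exact permutation p = 0.102, two-sided).

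*RT1-O2-ps*, a class I pseudogene separated from *RT1-T18* by 5 genes in the RefSeq order of chromosome 20, was divided in the same way. Its counts were 143, 146, 205, 162, 0 and 8 in CIE rats and 149, 150, 7, 1, 3 and 0 in Control rats. The same rats 1, 2, 3, 4, 7 and 8 were high, with a gap of 3.61 log2 units to the others. The group means were 1.72 ± 1.33 and 0.623 ± 0.900 CPM (log2 fold change 1.41 ± 1.12 SE, nominal p = 0.229, FDR 0.802, exact permutation p = 0.0996). Between these genes lies *Rps2-ps2*, a ribosomal protein pseudogene that is not an RT1 gene, with 3.04 to 6.54 CPM in those 6 rats and 0.0802 to 0.493 CPM in the rest. Over all genes tested, only these 3 put their largest gap between the same sets of rats with at least 2 log2 units, and *LOC103690108* did so with 1.01. The parent gene *Rps2* ranged from 51.4 to 72.9 CPM with no such division. A gap of at least 2 log2 units was found in 4 of the 42 genes (9.52%), against 0.649% of all genes, and with at least 2 rats on either side in 2 of 42 (4.76%), against 0.177%. A gap of at least 1 log2 unit was found in 6 of 42 (14.3%), against 5.37%.

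*RT1-N2* and *RT1-S2* come next along the chromosome, with 1 gene between *RT1-O2-ps* and *RT1-N2* and 1 between *RT1-N2* and *RT1-S2*, and both were low in CIE rat 3. *RT1-N2* measured 16.0, 15.7, 1.79, 18.2, 36.6 and 28.7 CPM in CIE rats 1 to 6 and 14.6, 14.9, 20.3, 24.0, 29.9 and 28.1 CPM in Control rats 7 to 12. *RT1-S2* measured 11.1, 9.93, 2.16, 11.1, 16.4 and 20.3 CPM in CIE rats and 9.99, 9.45, 16.5, 11.5, 13.05 and 17.4 CPM in Control rats. Rat 3 lay 3.003 log2 units below the next rat for *RT1-N2* and 2.11 below it for *RT1-S2*, whereas its *RT1-T18* and *RT1-O2-ps* were the highest of all rats. Rat 3 alone lay below the largest gap in 1383 of the 20944 genes tested, 146 of them with a gap of at least 1 and 29 with at least 2 log2 units, and such single low rats were also common elsewhere (rat 6 in 1320 genes and rat 10 in 1124). The group difference was -0.17 ± 0.45 (log2, SE, exact permutation p = 0.667, FDR 0.949) for *RT1-N2* and -0.13 ± 0.36 (exact permutation p = 0.712, FDR 0.952) for *RT1-S2*. Without rat 3 the estimates turned to 0.075 and 0.090, so their sign was set by this animal. *RT1-N3* and *RT1-S3*, the next expressed RT1 genes in the order, showed no such drop in rat 3. *RT1-N3* had 8.55 CPM there and 9.63 to 14.9 CPM in the other rats, and *RT1-S3* had 15.9 CPM, within the 9.36 to 20.2 CPM of the others.

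The order of the rats was shared further. For *RT1-N2* the 6 lowest values were those of rats 1, 2, 3, 4, 7 and 8 (1.79 to 18.2 CPM), the same rats that were highest for *RT1-T18*, and the other 6 rats had 20.3 to 36.6 CPM. *RT1-S2* was lowest in the same 6 rats (2.16 to 11.1 CPM) and above them in the rest (11.5 to 20.3 CPM). The pseudogene *RT1-M1-3-ps* was highest in those rats (0.166 to 0.464 CPM, with 0 to 0.136 CPM elsewhere). Of all 20944 genes tested, 17 (0.0812%) had these rats as their 6 highest or 6 lowest, and 5 of the 17 were RT1 genes. By RefSeq symbol, 7 of the 17 lie on chromosome 20, which holds 2.89% of the genes tested that could be placed. *RT1-T18* defined this order and is counted in these numbers, and the order was noticed in the data, so the counts describe these 12 rats and carry no test. The rats' RT1 haplotypes and litters are not given in the sources used here, and their part in the result was not tested.

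**Figure D3:**
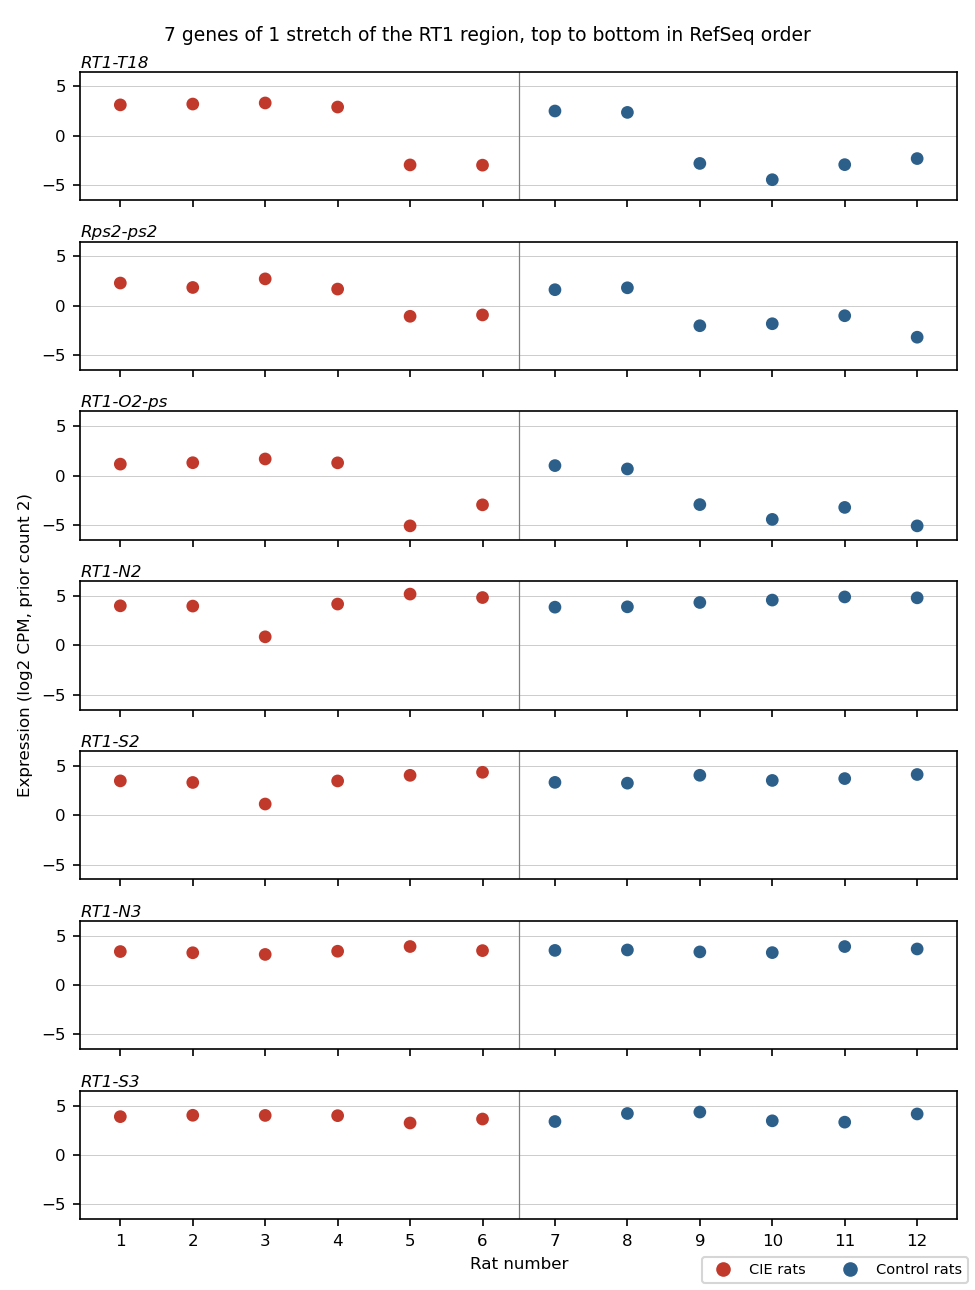
Expression (log2 CPM with a prior count of 2, y axis) of 7 genes in each of the 12 rats (x axis, red for CIE and blue for Control), arranged from top to bottom in RefSeq order along chromosome 20. The first 3 genes are high in rats 1, 2, 3, 4, 7 and 8 only, RT1-N2 and RT1-S2 are low in rat 3, and RT1-N3 and RT1-S3 show no such division.

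The classical class I genes *RT1-A1* and *RT1-A2* and the class I gene *RT1-CE3* had a largest gap that fell between other rats. *RT1-A2* measured 11.8, 15.1, 19.7, 18.1, 10.2 and 23.9 CPM in CIE rats and 15.0, 18.5, 21.2, 11.7, 11.2 and 18.4 CPM in Control rats. Rats 1, 5, 10 and 11 were lowest for all 3 genes, and these were the only genes of all tested whose largest gap set these 4 rats below the other 8. The gaps were small, 0.25, 0.35 and 0.44 log2 units, beside a median largest gap of 0.23 over all genes tested. They ranked 9849, 6817 and 4969 among the 20944 genes, so gaps of this size were common. The group means were 16.5 ± 5.15 and 16.0 ± 4.03 CPM for *RT1-A2* (log2 fold change 0.04 ± 0.21 SE, exact permutation p = 0.866, FDR 0.976). Class I genes are close copies, and whether reads were shared among these 3 was not tested.

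Among the remaining class I genes the spread differed widely. *RT1-CE1* ranged from 14.1 to 16.9 CPM in CIE rats and from 12.5 to 17.2 CPM in Control rats, the lowest within-group SD of the 42 genes (0.15 log2 units; log2 fold change 0.05 ± 0.09 SE, exact permutation p = 0.535, FDR 0.925). *RT1-S3*, a relative of the mouse Qa-1 gene, whose product presents leader peptides to natural killer cell receptors, had 14.0 ± 2.67 and 14.6 ± 4.63 CPM (-0.06 ± 0.20, exact permutation p = 0.797, FDR 0.962). *RT1-M3-1*, which presents N-formylated peptides such as those of bacteria and mitochondria, had 7.51 ± 1.41 and 6.94 ± 0.542 CPM (0.11 ± 0.12, exact permutation p = 0.400, FDR 0.863). *RT1-M1-2* was the class I gene with a nominal difference. It measured 1.25, 1.70, 0.958, 1.19, 1.87 and 2.05 CPM in CIE rats and 2.37, 1.68, 3.48, 2.41, 1.55 and 1.83 CPM in Control rats (log2 fold change -0.56 ± 0.24 SE, nominal p = 0.0331, FDR 0.552, exact permutation p = 0.0541). The groups overlapped between 1.55 and 2.05 CPM, and Control rat 9 was highest. Without CIE rat 1, 3 or 4 or Control rat 7, 9 or 10 the gene no longer passed the nominal threshold (-0.39 without rat 9 to -0.55 without rat 7). Among low genes, *RT1-M1-3-ps* (0.93 ± 0.55, exact permutation p = 0.106, FDR 0.709) and *RT1-M10-4-ps* (0.46 ± 0.47, exact permutation p = 0.487, FDR 0.855) had higher estimates in the CIE group, and the latter was highest in rat 1 (1.26 CPM, with 0.173 to 0.774 CPM in all others). *RT1-M1-3-ps* passed the nominal threshold in edgeR without Control rat 7 (1.31), and in limma-voom on all 12 rats.

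Summed over the 43 class I genes, the counts of each rat differed less than those of single genes. The sum was 139, 149, 137, 162, 151 and 180 CPM in CIE rats and 138, 162, 167, 133, 142 and 171 CPM in Control rats. The means were 153 ± 15.8 and 152 ± 16.4 CPM, and the highest rat had 1.35 times the lowest. Among single genes, *RT1-CE1* spanned 1.38-fold between rats and *RT1-N2* 20.4-fold, with rat 3 at 1.79 CPM and the others at 14.6 to 36.6 CPM. The joint sum of the RT1-N and RT1-S genes spanned 2.72-fold, with rat 3 lowest (28.4 CPM). The sums of the RT1-A, RT1-CE and RT1-M genes spanned 2.07-fold, 1.45-fold and 1.31-fold. A sum over many genes tends to vary less than its most variable member, so the comparison carries no test. Summing joins reads that may have been divided between copies, but not reads that were never counted.

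**Figure D4:**
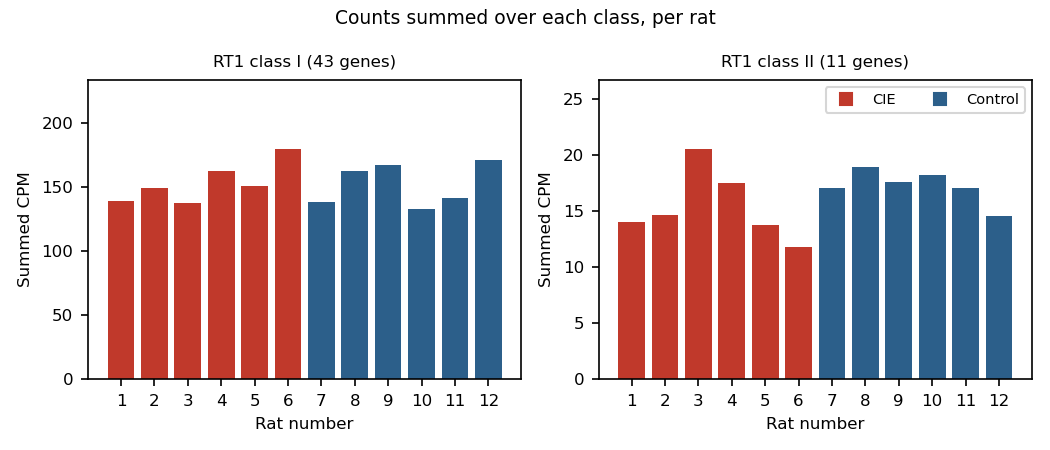
Counts summed over the 43 class I genes (left) and the 11 class II genes (right) in each rat (x axis), in CPM (y axis, from 0; red for CIE, blue for Control). Class I sums run from 133 to 180 CPM with no division by group, and the lowest and highest class II sums (11.8 and 20.5 CPM) are both from CIE rats.

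The class II genes had estimates in both directions. The alpha and beta chains that reach the cell surface had higher means in the CIE group for 3 of the 4 genes, while the 2 chains of DM had lower means. *RT1-Da* measured 1.15, 0.983, 0.835, 1.61, 0.403 and 0.851 CPM in CIE rats and 1.06, 0.978, 0.561, 0.489, 0.568 and 0.401 CPM in Control rats (log2 fold change 0.51 ± 0.33 SE, exact permutation p = 0.162, FDR 0.745). Its partner *RT1-Db1* measured 1.25, 0.367, 1.38, 1.29, 1.60 and 0.925 against 0.505, 0.842, 0.633, 0.657, 1.21 and 0.575 CPM (0.63 ± 0.32, exact permutation p = 0.0887, FDR 0.639). The groups overlapped for both chains, rat 4 was highest for *RT1-Da* and rat 5, lowest for *RT1-Da* in its group, was highest for *RT1-Db1*. *RT1-Ba* had 1.03 ± 0.311 and 0.709 ± 0.212 CPM (0.52 ± 0.27, exact permutation p = 0.0693, FDR 0.653), and its partner *RT1-Bb* 0.321 ± 0.159 and 0.436 ± 0.362 CPM (-0.47 ± 0.54, exact permutation p = 0.519, FDR 0.874), with Control rat 8 highest at 1.04 CPM. Without rat 8 the estimate of *RT1-Bb* turned to 0.013. *RT1-Db1* passed a nominal p of 0.05 in DESeq2 on all 12 rats (0.64), and in edgeR without CIE rat 2 (0.81) or without Control rat 11 (0.82), *RT1-Ba* without CIE rat 5 (0.61) or 6 (0.64), and *RT1-Da* without CIE rat 5 (0.67). The lowest FDR on leaving out 1 rat was 0.363, 0.464 and 0.534 for these genes.

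The DM genes encode the chaperone that exchanges the invariant chain remnant for peptide. *RT1-DMb* measured 3.48, 4.50, 5.97, 3.91, 3.58 and 3.26 CPM in CIE rats and 5.14, 6.14, 5.48, 5.44, 5.48 and 4.25 CPM in Control rats. Of the CIE rats 5 lay at 4.50 CPM or below and of the Control rats 5 at 5.14 CPM or above, while CIE rat 3 and Control rat 12 crossed over. The group difference (log2) was -0.37 ± 0.15 (SE; nominal p = 0.0274, FDR 0.517, exact permutation p = 0.0390, two-sided, where 0.00216 is the smallest that 6 against 6 can give). Without CIE rat 1, 5 or 6 or Control rat 8 it no longer passed the nominal threshold (-0.33, -0.34, -0.31 and -0.32). The lowest FDR on leaving out 1 rat was 0.105, without CIE rat 3. *RT1-DMa* measured 6.32, 6.60, 9.66, 7.60, 6.22 and 5.02 CPM in CIE rats and 7.24, 7.95, 8.64, 10.5, 8.45 and 7.54 CPM in Control rats (-0.28 ± 0.15, exact permutation p = 0.0974, FDR 0.653). CIE rat 3 was the highest CIE rat for both chains, and without it *RT1-DMa* passed the nominal threshold in edgeR at -0.40 (FDR 0.201). In limma-voom *RT1-DMa* passed it on all 12 rats. *RT1-DOb*, the beta chain of the DM modulator DO, had 0.629 ± 0.364 and 0.728 ± 0.442 CPM (-0.23 ± 0.45, exact permutation p = 0.684, FDR 0.933).

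Of the regulators and escorts of class II, *Ciita* measured 0.830, 0.433, 1.17, 1.06, 0.907 and 0.432 CPM in CIE rats and 0.984, 0.302, 0.561, 0.371, 0.362 and 0.602 CPM in Control rats. The group difference (log2) was 0.59 ± 0.35 (SE, exact permutation p = 0.132, FDR 0.709), and 0.87, past the nominal threshold (FDR 0.511), without Control rat 7, the highest of its group. *Cd74* measured 3.06, 1.82, 4.36, 8.20, 2.0008 and 3.54 CPM in CIE rats and 3.16, 3.57, 4.33, 3.08, 2.92 and 2.61 CPM in Control rats. CIE rat 4 was highest for *Cd74* as it was for *RT1-Da*, and the difference between groups (0.22 ± 0.31, exact permutation p = 0.738, FDR 0.900) turned to -0.15 without that rat. The class II sum was 15.4 ± 3.13 CPM in CIE rats and 17.3 ± 1.49 CPM in Control rats (log2 ratio -0.17). *RT1-DMa* and *RT1-DMb* contributed most of these counts, and without them the sums were 4.35 ± 0.944 and 3.54 ± 1.03 CPM (log2 ratio 0.30).

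**Figure D5:**
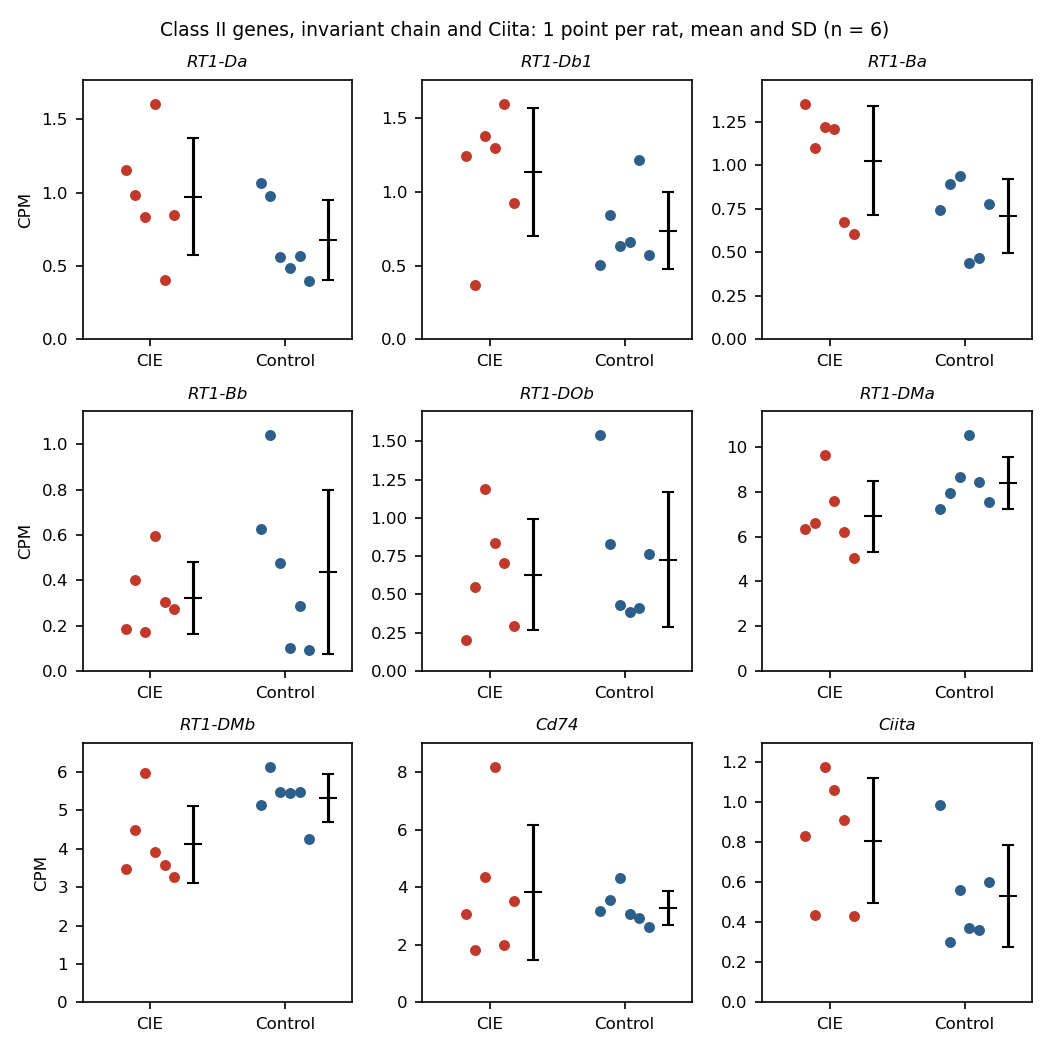
CPM (y axis, from 0) of the 7 tested class II genes, Cd74 and Ciita in the CIE (red) and Control (blue) rats, 1 point per rat, with the mean and SD (n = 6) in black beside each group. The groups overlap in every panel, RT1-DMb has the smallest permutation p of the 9 genes, and single rats stand out for Cd74 (8.20 CPM) and RT1-Bb (1.04 CPM).

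Markers of the cells that carry class II in brain were counted in the same libraries, where 4.0% of all genes were higher and 4.31% lower in the CIE group at a nominal p below 0.05. Of the 15 microglia markers tested, 1 had a lower and 0 a higher nominal p (*Cx3cr1*, -0.28, FDR 0.169), and the 16 in the table summed to 426 to 539 CPM in CIE rats and 463 to 535 CPM in Control rats. *Gpr34* was at 0 in every rat. Of the 7 tested markers of perivascular macrophages, *Cd163* was higher at a nominal p below 0.05 (0.77, FDR 0.558) and 0 were lower. The list median was -0.02, and *Lyve1* (-0.40), *Pf4* (-0.56) and *F13a1* (-0.47) had estimates in the other direction. The sums of the list were 13.9 to 25.5 CPM in CIE rats and 16.2 to 21.3 CPM in Control rats. Only 5 of 18 leukocyte markers passed the filter, *Cd79a* was at 0, and the sums were 10.995 to 21.9 and 12.2 to 18.2 CPM. *Il2rg*, the common cytokine receptor chain, was lower in the CIE group (0.474 ± 0.175 against 1.37 ± 0.447 CPM, -1.53, FDR 0.0297). The median of the 5 was 0.06, with higher estimates for *Cd8a* (0.32), *Cd8b* (0.33) and *Flt3* (0.06) and a lower one for *Ltb* (-0.11). Blood markers were lower in the CIE group in 5 of 6 tested (4 at 5% FDR), with sums of 93.5 to 296 against 377 to 690 CPM, as were 4 of 8 meningeal fibroblast (2 at 5% FDR), 6 of 14 endothelial (2 higher, and *Kdr* at 5% FDR) and 9 of 10 oligodendrocyte markers. Of the remaining lists, astrocytes had 2 of 10 higher and 1 lower, neurons 0 of 10, the choroid plexus 0 of 3 (*Ttr* at 0) and the central amygdala list 2 of 11 lower. In bulk tissue fewer cells of a type and less RNA per cell cannot be told apart, and the part of any of these lists in the class II values was not tested. All 11 markers of the central amygdala in the table were detected, but their levels varied widely between rats. Their sums were 715 to 3099 CPM in CIE rats and 723 to 3688 CPM in Control rats. Among them *Ppp1r1b* ranged from 51.4 to 1454 CPM and *Drd2* from 17.9 to 251 CPM. *Slc17a7*, a marker of cortical and basolateral glutamatergic neurons, ranged from 3.66 to 348 CPM. It was high in rats 1, 2, 4, 6, 10 and 12, a set of animals that differs from the one seen for *RT1-T18*.

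None of the class I processing genes passed the test between the groups. *B2m* measured 119, 115, 173, 122, 117 and 131 CPM in CIE rats and 105, 158, 145, 139, 129 and 149 CPM in Control rats (129 ± 22.0 and 137 ± 18.6; log2 fold change -0.09 ± 0.11 SE, exact permutation p = 0.50, FDR 0.890). Rat 3, the animal with little *RT1-N2* and *RT1-S2*, had the highest value. The peptide transporter genes had 4.66 ± 0.900 and 3.98 ± 0.997 CPM for *Tap1* (0.22 ± 0.18, exact permutation p = 0.245, FDR 0.805) and 3.99 ± 0.578 and 4.26 ± 0.576 CPM for *Tap2* (-0.09 ± 0.13, exact permutation p = 0.426, FDR 0.900). *Tap1* was lowest in Control rats 10 and 11 (2.9985 and 2.61 CPM), which were also low for *RT1-A1*, *RT1-A2* and *RT1-CE3*, but of the other rats low for those genes rat 5 had the highest *Tap1* of all 12 (6.05 CPM) and rat 1 had 4.14 CPM. Tapasin (*Tapbp*) had 18.6 ± 1.31 and 19.1 ± 2.88 CPM (-0.04 ± 0.10, exact permutation p = 0.719, FDR 0.946). The immunoproteasome subunit *Psmb8* had 1.80 ± 0.453 and 1.74 ± 0.386 CPM (0.05 ± 0.21, exact permutation p = 0.803, FDR 0.970), and *Psmb9* had 1.89 ± 0.479 and 2.20 ± 0.318 CPM (-0.21 ± 0.18, exact permutation p = 0.242, FDR 0.821), with CIE rats 1 and 2 lowest at 1.32 CPM each.

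Other genes of the pathway were counted in the same test against the same 4.0% higher and 4.31% lower of all genes, and none of those that follow passed 5% FDR. Of 18 class I accessory genes 0 were higher and 4 lower (median log2 fold change -0.11). They included the glycoprotein chaperones of the endoplasmic reticulum *Calr* (calreticulin; 329 ± 30.9 against 398 ± 25.2 CPM, -0.28 ± 0.07, FDR 0.163) and *Canx* (calnexin; -0.18 ± 0.07, FDR 0.490), and their partner *Pdia3* (ERp57; -0.16 ± 0.07, FDR 0.529). These proteins fold many glycoproteins besides class I. Of 18 class II accessory genes 0 were higher and 0 lower (median -0.06). Of 7 MHC-like genes outside RT1, *Mr1*, which presents vitamin B metabolites, was lower (1.22 ± 0.312 against 2.14 ± 0.711 CPM, -0.80 ± 0.23, FDR 0.258), and the lipid-presenting *Cd1d1* was higher (1.88 ± 0.460 against 1.39 ± 0.269 CPM, 0.42 ± 0.20, FDR 0.596). Of 31 interferon-related genes 1 was higher and 5 lower (median -0.09). The smallest p values belonged to *Gbp2* (1.75 ± 0.214 against 2.78 ± 0.374 CPM, -0.66 ± 0.14, FDR 0.0621), *Bst2* (-0.69 ± 0.16, FDR 0.113) and *Isg15* (-0.57 ± 0.16, FDR 0.245), which are interferon-induced. *Gbp2* did not overlap between groups, with 1.45 to 2.08 CPM in CIE rats and 2.45 to 3.44 CPM in Control rats. The same held for 0.893% of all genes tested.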

How the data were processed

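Gene counts were made by the authors, who mapped paired-end reads of poly-A RNA with BWA to Rnor_6.0 and counted them with HTSeq; the annotation, strand and overlap settings are not given in the sources used here. The deposited raw counts were tested with edgeR 4.0.16 (TMM, filterByExpr, quasi-likelihood F test) in R 4.3.3 on all 12 rats, with Benjamini-Hochberg adjustment over 20944 genes. Groups came from the treatment label, since all titles carry the same word. Single genes were also compared by two-sided exact permutation of group means (924 allocations), and these p values were not adjusted. DESeq2 1.42.0, limma-voom (limma 3.58.1), other scalings and filters and the omission of each rat were alternatives. On simulated counts, edgeR recovered 133 of 200 genes changed by 1 log2 unit (6 rats a group, 20944 genes). Of the 200, 152 had a mean of at least 1 CPM, and 129 of these passed 5% FDR, so few recovered genes lay below 1 CPM. *Ciita* and the tested class II genes other than *RT1-DMa* and *RT1-DMb* had means near or below 1 CPM. Smaller changes were not simulated, and of the RT1 and processing genes only *RT1-T18* and *RT1-O2-ps* had estimates that large. The recovery therefore does not tell how often the smaller differences printed here would pass. The text names the 8 non-RT1 genes, tested class II genes, RT1 genes with a nominal p below 0.05 or no overlap, the 5 class I genes with the highest mean CPM, the 8 genes with the highest SD, and the listed genes of lowest p; *Rps2-ps2*, *Rps2*, *LOC103690108*, *Slc17a7*, *RT1-A1*, *RT1-CE3*, *RT1-N3*, *RT1-M3-1*, *RT1-M6-2*, *RT1-CE13*, the named cell markers and the genes at 0 were named after their values were seen. Genes and lists were chosen with earlier results of these data known. Depth was 39082548 to 95647601 counts, and filterByExpr requires about 10 counts in enough rats of a group.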

Additional observations from a re-analysis of the deposited data

Results flagged for a closer look

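In 4 cases 1 rat stood apart from the other 5 of its group by Dixon's criterion, among 50 groups of values looked at; chance alone sets apart about 1 group in 20. CIE rat 3 accounted for 3 of them, with the highest *B2m* level of its group (173 CPM) and the lowest *RT1-N2* (1.79 CPM) and *RT1-S2* (2.16 CPM). Rat 3 alone lay above the largest gap in 835 of all 20944 genes tested and alone below it in 1383, of which 29 had a gap of at least 2 log2 units. Other rats were also set apart in many genes (rat 6 alone below the gap in 1320 and rat 10 in 1124). The source of the values of rat 3 was not tested. The fourth case was *Psmb8* in Control rat 7, the lowest of its group at 1.02 CPM. *RT1-T18* was not set apart in this way, since each of its levels was shared by several rats of a group.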

How the results depend on the processing

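The count of RT1 and processing genes with a nominal p below 0.05 was 2 with other scalings and filters (1598 to 2267 of all genes). It was 3 in DESeq2 and 5 of 42 in limma-voom (where 3596 of 20944 genes passed). On leaving out 1 rat it was 0 to 3 of 42, while 1347 to 2811 of all genes passed (21093 to 21213 tested). It was 0 without CIE rat 1 (1409 of all genes), and 1 without CIE rat 4, Control rat 8 or Control rat 10. None of the RT1 and processing genes passed 5% FDR in any setting. Without CIE rat 6 the groups of 1 of the 42 genes no longer overlapped (*RT1-CE13*). The share over all genes was not counted in that setting, so this count has no background. For *RT1-M1-2* the exact permutation p was 0.0498 on log2 values. The class II log2 ratio was 0.30 without *RT1-DMa* and *RT1-DMb*, an alternative chosen after seeing the data, as were the limit of 1 CPM and the gap sizes. Of 25 named genes 16 kept their direction in every setting and 9 reversed at least once. In limma-voom *Psmb8* had -0.031 and *RT1-A2* -0.15. On leaving out 1 rat the log2 fold change ran from -0.065 to 0.13 for *Psmb8*, -0.098 to 0.14 for *RT1-A2*, -0.10 to 0.022 for *Tapbp*, -0.15 to 0.37 for *Cd74*, -0.74 to 0.013 for *RT1-Bb*, -0.51 to 0.14 for *RT1-DOb*, -0.45 to 0.075 for *RT1-N2*, -0.15 to 0.057 for *RT1-S3* and -0.35 to 0.090 for *RT1-S2*; the cause was not tested. The groups were separate animals and the sources used here give no pairing, so no paired analysis was done.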
